A study of Rattus norvegicus with 6 samples.

Results

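Marker genes of Kupffer cells, the resident macrophages of the liver, and of macrophages in general were followed here in rat liver. They are *C1qa*, *C1qb*, *C1qc*, *Vsig4*, *Cd163*, *Marco*, *Cd68*, *Clec4f*, *Csf1r* and *Adgre1*. Each was taken by its symbol from 32158 loci with a symbol, and all 10 members were found, each on 1 locus. Male obesity-prone Sprague Dawley rats received for 2 weeks either a control diet (CD, code TD 08485) or a Western diet rich in milk fat, sucrose and cholesterol (WD, code TD 88137), and were then fasted overnight and refed. Liver RNA was sequenced as total RNA and as the light and the heavy fraction of a sucrose density gradient made from the left lobe, which hold mRNAs bound to 3 or fewer and to 4 or more ribosomes. Each of the 6 libraries, 1 per diet and kind of RNA, was made from the pooled RNA of 3 rats, so no value has a replicate and no test between the diets can be made. Whole liver was sampled, so fewer macrophages and less RNA per macrophage cannot be told apart.

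Kupffer cells line the sinusoids, the capillaries of the liver, where they take up bacteria, cell debris and aged red blood cells from the portal blood. They depend on signaling through the CSF1 receptor, carry scavenger and complement receptors for uptake, and are a main source of the C1q subunits that start the classical pathway of complement. Macrophages gain in number and change their state as steatosis proceeds to steatohepatitis, which is why their mRNAs are often followed in diet studies.

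Levels are deposited values in fragments per kilobase of transcript, scaled for the mapped fragments of a library (FPKM), and can be set side by side between genes because they are per length. Low values lie on whole-number steps, from which the count of sequenced fragments was worked out for 9 of the 10 members, all but *Csf1r*. From these numbers a 95% counting interval was computed, exact Poisson for a level and exact binomial (Clopper-Pearson) for a ratio of levels. Such an interval covers counting error only and compares libraries, not diets, since amplified reads carry no molecular identifiers and rats were not measured one by one. The libraries were shallow at genes with such numbers, which were found for 6629 of the 10201 loci compared. The median was 7 to 19 inferred fragments per gene. Numbers were sought only up to 40 for the lowest library above 0, so loci with many fragments are left out of this median. An equal FPKM stood for 2.34 times as many fragments in the WD light as in the CD heavy library. Over the genes with numbers, the inferred fragments summed to 287770 in the WD light and 91401 in the CD heavy library. The WD light library also held 454 FPKM of blood cell mRNAs summed over 5 genes. This compares with 58.6 FPKM in the CD light library and 19.0 to 37.8 FPKM in the other libraries. The part of depth and of blood in the results on the light fraction was not tested.

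All 10 members were detected in every library, at between 0.369 FPKM for *Cd163* in the CD light fraction and 58.1 FPKM for *Csf1r* in the WD heavy fraction. In CD total RNA the order from high to low was *C1qc*, *C1qa*, *Clec4f*, *Csf1r*, *Marco*, *C1qb*, *Vsig4*, *Cd68*, *Adgre1* and *Cd163*. The counting intervals of neighbours in that order overlapped throughout the 9 genes that have one. The extremes were apart, with 23.6 FPKM for *C1qc* (15.1 to 35.1) and 1.52 FPKM for *Cd163* (0.556 to 3.30). The summed level of the 10 members was 115 FPKM in CD and 142 FPKM in WD total RNA, 100.5 and 118 FPKM in the light fractions and 165 and 202 FPKM in the heavy fractions. On libraries rescaled to an equal sum it was 123 and 162 FPKM, 104 and 95.8 FPKM, and 168 and 202 FPKM. The sum was thus higher in WD in total RNA and the heavy fraction on both scales, while its direction in the light fraction depended on the scale, and single genes differed in both directions.

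**Figure D1:**
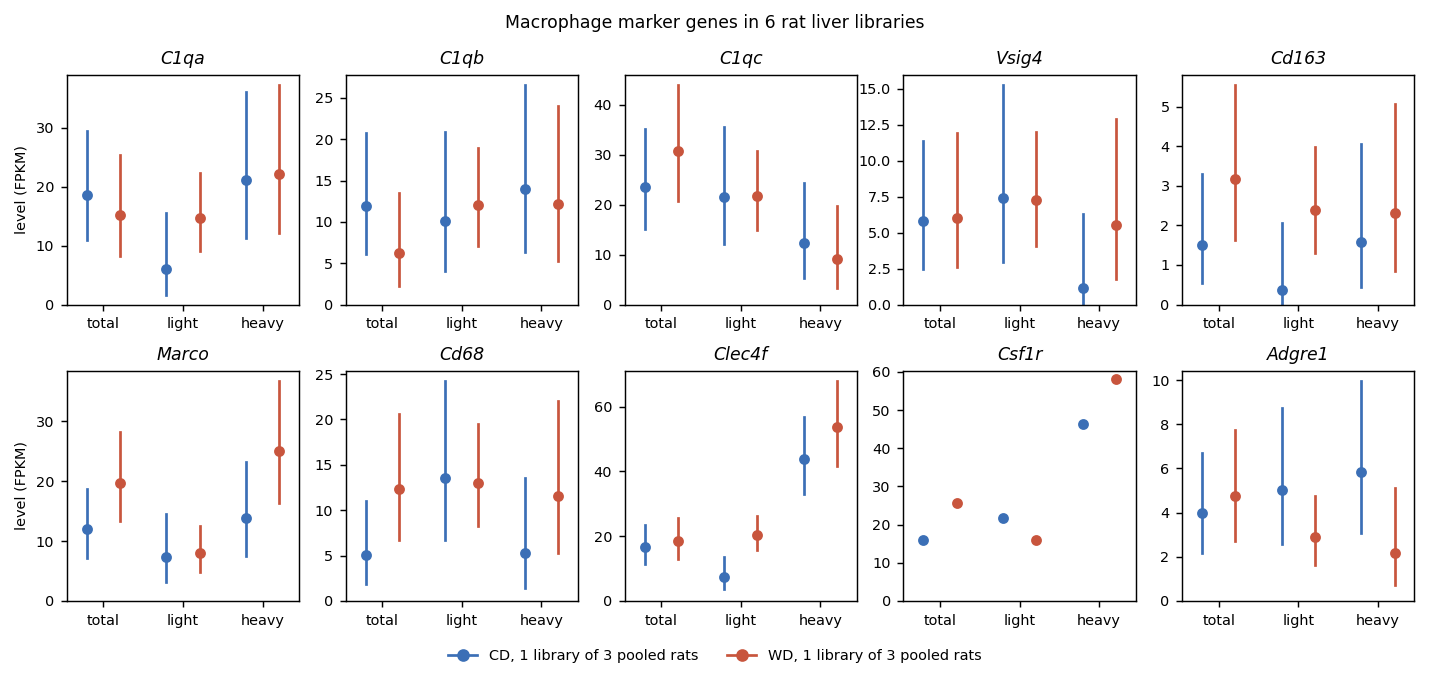
Level of each of the 10 genes in the 6 libraries (y axis, FPKM, from 0, with its own scale for each gene), with total RNA, light and heavy fractions along the x axis and CD in blue beside WD in red. Points are single libraries of 3 pooled rats and bars are 95% exact Poisson counting intervals, which could not be computed for *Csf1r*. *Clec4f*, *Csf1r* and *Marco* were highest in the WD heavy fraction, *C1qc* was lowest there, and most bars of CD and WD overlap.

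The genome places the members on 7 chromosomes of the assembly Rnor_6.0. The 3 C1q genes are neighbours on chromosome 5, *C1qb* at 155246446 to 155252003, *C1qc* at 155255004 to 155258392 and *C1qa* at 155261249 to 155264143. They span 17698 bases with no other locus between them. *Cd163* (156752081 to 156785467) and *Clec4f* (115322290 to 115332052) are both on chromosome 4. The others are *Cd68* on chromosome 10 (56268719 to 56270640), *Csf1r* on chromosome 18 (56414487 to 56458300), *Adgre1* on chromosome 9 (9431859 to 9585865) and *Vsig4* on chromosome X (65370850 to 65400298). The locus named *Marco* is on chromosome 16 (85115200 to 85135859), between *Myo16* and *Tnfsf13b*. RefSeq's annotation of the assembly GRCr8 has these neighbours on chromosome 16 but *Marco* on chromosome 13, so the place of this gene differs between the sources and its values are those of the locus with that symbol.

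The macrophage factor PU.1 binds purine-rich DNA around the letters GAGGAA, and RefSeq promoters of the assembly GRCr8 (250 bases before to 50 after the start of a gene) were searched for these letters on both strands. They were found in 5 of the 9 members with a promoter, and in 27.6% of all 33469 promoters. The longer form GAGGAAGT was in none of the 9 and in 2.42% of all, and *C1qc* had no promoter in the table. A match is printed for 4 of the 5 genes to show how it lies, read along the strand of the gene with the searched letters in capitals (TTCCTC is GAGGAA on the other strand). The match nearest before the start begins 27 bases upstream in *Cd68*, 90 in *C1qb*, 95 in *Csf1r* and 207 in *Adgre1*. *Marco*, also matched, is left out because its place differs between the sources. A match describes letters and is not a binding site.
Cd68 (chr10:54882453-54882476, minus strand): gttttcatTTCCTCttccaagaga
C1qb (chr5:154407902-154407925, minus strand): acagtaatTTCCTCgagaagcaga
Csf1r (chr18:56834276-56834299, plus strand): agaacgtgTTCCTCtgttcccatc
Adgre1 (chr9:2329225-2329248, plus strand): tggaaagaGAGGAAggaagagggg

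Abundance was compared between WD and CD total RNA to see whether macrophage mRNAs were more plentiful in the liver after 2 weeks of the Western diet. Of the 10 members, 8 were higher in WD, *Vsig4* among them with equal fragment numbers, and 2 lower. Among the 10201 loci that had a symbol and averaged 1 FPKM or more, 51.1% were higher. The median log2 change was 0.32, compared with 0.022 over these loci. No member had a counting interval of the ratio that left out 1, whereas 5.42% of 6629 loci did (2.66% above and 2.76% below). A ratio of at least 1.5 was found for 4 members and for 17.7% of all loci, and a ratio of at most 0.75 for 1 member and for 22.7% of all loci. Each change is the log2 ratio of WD to CD after 0.1 FPKM was added to the values. The bounds that Cufflinks gives for each value overlapped between the diets for all 10 members in total RNA and in both fractions. Overlap was not counted over all loci, so it does not set the members apart.

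The 3 C1q chains, which join into the C1q molecule that recognises immune complexes and dying cells, did not move one way. *C1qa* was at 18.6 FPKM in CD and 15.1 FPKM in WD total RNA, from 18 and 14 fragments, a change of -0.30 (95% counting interval of the ratio, 0.374 to 1.73). *C1qb* was at 11.9 FPKM and 6.22 FPKM, from 12 and 6 fragments, a change of -0.92 (0.161 to 1.51). *C1qc* was at 23.6 FPKM and 30.9 FPKM, from 24 and 30 fragments, a change of 0.38 (0.739 to 2.34). *C1qb* was thus the lowest of the members in WD relative to CD, and its neighbour *C1qc* was on the other side of 0, with all 3 intervals overlapping.

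Among the receptors for uptake, *Cd163*, *Marco* and *Cd68* were higher in WD, with intervals that included 1, and *Vsig4* was close to equal. *Vsig4*, a complement receptor of Kupffer cells that binds fragments of C3, was at 5.78 FPKM in CD and 6.04 FPKM in WD, from 8 fragments in each. Equal fragment numbers in CD and WD total RNA give a ratio of 1.05, which is that of *Vsig4*. *Cd163*, the receptor for haemoglobin bound to haptoglobin, was at 1.52 FPKM and 3.17 FPKM, from 6 and 12 fragments, a change of 1.02 (0.726 to 6.79). *Marco*, a scavenger receptor that binds bacteria, was at 12.0 FPKM and 19.7 FPKM, from 19 and 30 fragments, a change of 0.72 (0.899 to 3.10). *Cd68*, a glycoprotein of lysosomes and endosomes widely used to stain macrophages, had the highest change, 1.27, from 5.05 FPKM in CD and 12.3 FPKM in WD. Its 6 and 14 fragments gave an interval of the ratio from 0.881 to 7.75.

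*Clec4f* and *Adgre1* were close to equal in the diets and *Csf1r* was higher in WD. *Clec4f*, a lectin that in rodents is made by Kupffer cells, was at 16.7 FPKM in CD and 18.5 FPKM in WD, from 33 and 35 fragments. Its change of 0.15 had the narrowest interval of the 9 genes (ratio, 0.669 to 1.84). *Adgre1*, an adhesion receptor widely used to identify macrophages, was at 3.99 FPKM and 4.77 FPKM, from 14 and 16 fragments, a change of 0.25 (0.546 to 2.64). *Csf1r*, the receptor for CSF1 and IL-34 on which these cells depend, was at 16.1 FPKM and 25.6 FPKM, a change of 0.67 with no counting interval. For none of the 9 genes with fragment numbers was a difference between the total RNA libraries detectable at this depth.

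**Figure D2:**
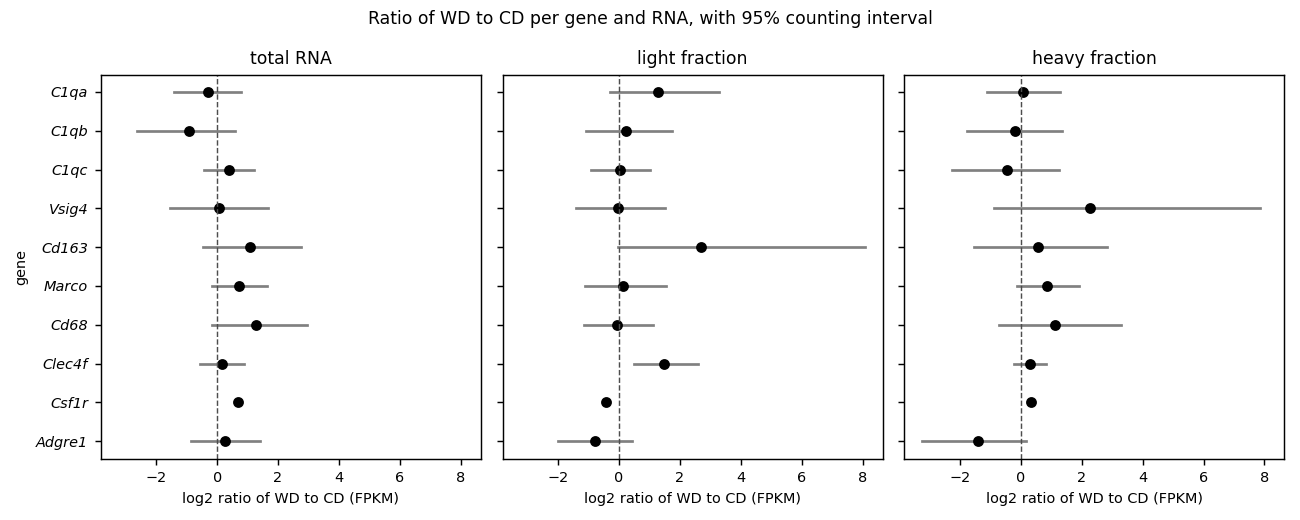
Log2 ratio of WD to CD of the deposited FPKM values (x axis, the same in all panels) for each of the 10 genes (y axis) in total RNA, the light and the heavy fraction. Points are single ratios of 1 library to 1 library and bars are 95% counting intervals, not available for *Csf1r*. Only *Clec4f* in the light fraction has a bar that leaves out 0, and the long bars of *Cd163* (light) and *Vsig4* (heavy) each rest on a library with 1 fragment.

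In the light fraction, which holds mRNAs with few ribosomes, 6 members were higher and 4 lower in WD (all loci, 51.0% higher). This split turned to 3 and 7 when the libraries were rescaled to an equal sum. The median log2 change was 0.071, beside 0.017 for all loci compared. A ratio of at least 1.5 was found for 3 members (25.9% of all loci) and one of at most 0.75 for 2 (26.8%). *Clec4f* was at 7.41 FPKM in CD and 20.4 FPKM in WD, from 10 and 60 fragments, a change of 1.45. The counting interval of its ratio, 1.40 to 6.05, left out 1, as it did for 14.5% of all loci with fragment numbers (7.87% above and 6.64% below). *C1qa* followed with 6.04 FPKM and 14.6 FPKM, from 4 and 21 fragments, a change of 1.26 (0.815 to 9.67). *Cd163* had 1 fragment in CD and 14 in WD, at 0.369 FPKM and 2.38 FPKM, and its ratio of the deposited values was 6.44 (0.980 to 272). These 3 genes had 10 or fewer fragments in the CD light library. In the other direction, *Adgre1* was at 5.00 FPKM in CD and 2.88 FPKM in WD, a change of -0.78 (0.251 to 1.35), and *Csf1r* at 21.6 FPKM and 15.9 FPKM, a change of -0.44. The other 5 members lay between -0.056 for *Cd68* and 0.24 for *C1qb*.

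In the heavy fraction, which holds the mRNAs carrying most ribosomes, 7 members were higher and 3 lower in WD (all loci, 45.1% higher). The median was 0.31, beside -0.015 for all loci. A ratio of at least 1.5 was found for 3 members (21.7% of all loci) and one of at most 0.75 for 2 (25.8%), and no counting interval left out 1 (5.16% of loci with fragment numbers, 2.67% above and 2.49% below). *Vsig4* had 1 fragment in CD and 5 in WD, at 1.13 FPKM and 5.54 FPKM, a ratio of 4.88 that counting error alone puts anywhere between 0.546 and 231. *Cd68* was at 5.29 FPKM and 11.6 FPKM, from 4 and 9 fragments, a change of 1.12 (0.613 to 9.76). *Marco* was at 13.8 FPKM and 25.1 FPKM, from 14 and 26 fragments, a change of 0.85 (0.913 to 3.76). In all 3 the CD heavy library held the smaller number of fragments. *Adgre1* was the lowest, at 5.82 FPKM in CD and 2.19 FPKM in WD, from 13 and 5 fragments, a change of -1.37 (0.105 to 1.12). *Adgre1* was thus lower in WD in both fractions although not in total RNA, and *Cd163* and *Clec4f* were higher in WD in all 3 kinds of RNA, as was *Marco* except in the light fraction on rescaled libraries (0.13 as deposited, -0.22 rescaled). *C1qc* was at 12.4 FPKM in CD and 9.05 FPKM in WD, a change of -0.45 (0.209 to 2.41).

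The distribution of each mRNA over the gradient was then described by its heavy to light ratio within a diet. The ratios in CD and in WD come from separate libraries, and within 1 diet the weight of a library is shared by all genes, so that the order of the genes does not depend on how libraries were scaled. In CD, 7 members were higher in the heavy and 3 in the light fraction, with a median log2 ratio of 0.68 (all loci, 0.012). In WD, 5 were higher in each, with a median of -0.0066 (all loci, 0). Of all loci, 50.2% in CD and 48.5% in WD were higher in the heavy fraction. With libraries rescaled to an equal sum, the split in WD was 7 and 3 and the median 0.29. Ratios of at least 1.5 were found for 5 members in CD (32.9% of all loci) and 4 in WD (31.4%), and ratios of at most 0.75 for 3 (36.6%) and 1 (38.5%).

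*Clec4f* had the highest heavy to light ratio in CD, with 43.8 FPKM in the heavy and 7.41 FPKM in the light fraction, a ratio of 5.91 (2.98 to 13.0, from 55 and 10 fragments). In WD it was at 53.6 FPKM and 20.4 FPKM, a ratio of 2.62 (1.83 to 3.77, from 69 and 60 fragments). Counting intervals left out 1 for *Clec4f* and *C1qa* in CD and for *Clec4f* and *Marco* in WD, that is for 2 of 9 genes each, compared with 24.5% (11.6% above and 12.9% below) and 32.2% (14.9% above and 17.3% below) of all loci with fragment numbers. The bounds that Cufflinks gives overlapped between the heavy and the light fraction for all 10 members in both diets, these genes included. That overlap was not counted over all loci. *Marco* had 26 heavy and 19 light fragments in WD, a ratio of 3.12 (1.66 to 5.96), and one of 1.88 in CD (0.736 to 5.17). *Csf1r*, for which fragments are unknown, had a ratio of 2.15 in CD and of 3.65 in WD. *Clec4f*, *Marco*, *Csf1r* and *C1qa* had ratios of 1.5 or above in both diets. The share of all loci that did so in both diets was not computed. With total RNA as the denominator, the log2 values in CD and WD were 1.38 and 1.53 for *Clec4f* and 1.52 and 1.18 for *Csf1r*. They were 0.21 and 0.34 for *Marco* and 0.18 and 0.55 for *C1qa*, which is below a ratio of 1.5. Of 11 hepatocyte genes, 9 had such a ratio in CD and 9 in WD.

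*C1qc* was higher in the light fraction in both diets and had the lowest ratio of the members in WD. It was at 21.6 FPKM in the light and 12.4 FPKM in the heavy fraction of CD, a ratio of 0.573 (0.210 to 1.44), and at 21.8 FPKM and 9.05 FPKM in WD, a ratio of 0.415 (0.142 to 1.00). The other chains of the same complex were higher in the heavy fraction in CD, *C1qa* with a ratio of 3.49 (1.08 to 14.7) and *C1qb* with 1.38 (0.458 to 4.36). In WD their ratios were 1.52 (0.715 to 3.13) and 1.01 (0.381 to 2.45). The heavy to light ratio of *C1qa* was 6.09 times that of *C1qc* in CD (conditional odds ratio interval, 1.25 to 33.1) and 3.67 times in WD (1.09 to 13.3). For *C1qb* against *C1qc* the intervals included 1 in both diets (0.543 to 10.9 and 0.622 to 9.89).

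*Vsig4* and *Cd68* had the lowest ratios in CD. *Vsig4* had 1 heavy and 7 light fragments in CD, a ratio of 0.153 (0.0034 to 1.19), and 5 and 15 in WD, a ratio of 0.760 whose interval included 1. *Cd68* had a ratio of 0.391 in CD (0.0907 to 1.32) and of 0.892 in WD (0.363 to 2.00). Both genes were thus on the light side in both diets as deposited, but the log2 ratio of *Cd68* in WD turned from -0.16 to 0.14 on rescaled libraries. *Adgre1* had 1.16 in CD (0.489 to 2.79) and 0.760 in WD, again from 5 and 15 fragments. *Cd163* had 4.30 in CD, from 4 heavy fragments and 1 light fragment (0.425 to 212), and 0.977 in WD (0.308 to 2.71). Over all 36 pairs of the 9 genes, the interval for the ratio of their heavy to light ratios left out 1 for 9 pairs in CD and for 9 in WD, and for 6 in both, each in the same direction. These intervals are not adjusted for the number of pairs. The same count was not made over pairs of other loci, so it does not set these genes apart. *Clec4f* was the higher gene in 4 of the 6, against *Cd68*, *Vsig4*, *C1qc* and *Adgre1*, and the others were *Marco* against *Vsig4* and *C1qa* against *C1qc*. The direction itself was the same in both diets for 27 of the 36 pairs. Across the 10 genes, which share libraries and are not replicates, the log2 ratios in CD and WD had a Pearson's r of 0.61 and a Spearman's rho of 0.70.

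**Figure D3:**
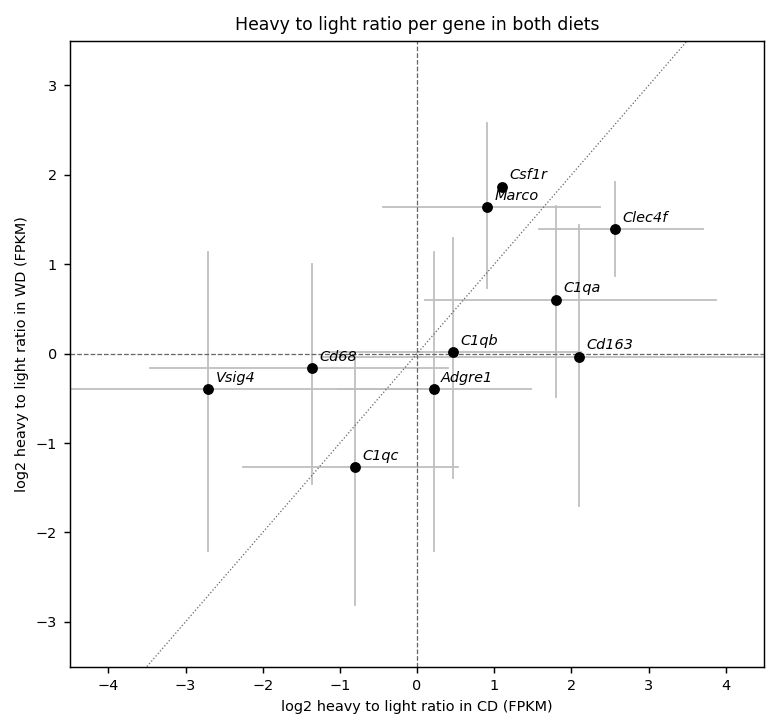
Log2 heavy to light ratio of the deposited FPKM values in CD (x axis) and in WD (y axis) for the 10 genes, with 95% counting intervals as grey lines (none for *Csf1r*; those of *Vsig4* and *Cd163* in CD run past the frame). The dashed lines mark equal levels in both fractions and the dotted line equal ratios in both diets. *Clec4f*, *Csf1r*, *Marco* and *C1qa* lie above 0 in both diets and *C1qc*, *Vsig4* and *Cd68* below 0, *Cd68* in WD only on the deposited scale.

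Ribosome density was taken as the heavy to light ratio, and its change as the log2 ratio of that in WD to that in CD. It was higher in WD for 4 members and lower for 6 (all loci, 48.3% higher). A ratio of at least 1.5 was found for 4 members (27.7% of all loci) and one of at most 0.75 for 6 (36.1%). The methods put these thresholds on CD over WD, and in that direction 4 members had a ratio of at least 1.5 (30.9%) and 4 one of at most 0.75 (32.9%), *C1qb* and *C1qc* passing neither. The median was -0.45, beside -0.021 for all loci. *Vsig4* (2.21), *Cd68* (1.18), *Csf1r* (0.76) and *Marco* (0.73) were on the higher side. *Cd163* (-1.88), *C1qa* (-1.19), *Clec4f* (-1.16), *Adgre1* (-0.60), *C1qc* (-0.46) and *C1qb* (-0.44) were on the lower side. Only for *Clec4f* did the counting interval of the ratio leave out 1, at 0.186 to 0.984 (7.08% of 6358 loci, 3.48% above and 3.6% below), and on libraries rescaled to an equal sum it included 1 (0.234 to 1.24). For the other 8 genes with fragment numbers the interval included 1, for example 0.411 to 267 for *Vsig4* and 0.498 to 5.31 for *Marco*. Rescaling evens out the summed FPKM of loci with a symbol, which was 867734 in the WD light library and 679535 to 700724 in the other fractions. Separately, a gene with equal fragment numbers in the 4 libraries has a density ratio of 2.12 in deposited FPKM, since FPKM corrects for unequal depth. With total RNA as the denominator instead of the light fraction, 5 of the 10 members changed sign, *Clec4f* among them at 0.14, and the median of the members was -0.0071. The share of all loci that changed sign was not computed, so this count does not set the members apart.

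The members did not share 1 pattern over the 6 libraries. Of the 45 pairs, 17 had a positive and 28 a negative Pearson's r of their log2 levels, with a median of -0.14. The values are a description, since the 6 libraries come from the same 2 pools of livers. The same count was not made over pairs of other loci, so it does not set the members apart. The part of counting error in these values was not tested. The highest r was 0.88 for *Clec4f* with *C1qa*, followed by 0.79 for *Cd163* with *C1qa* and 0.77 for *Clec4f* with *Csf1r*. The lowest was -0.84 for *Csf1r* with *C1qc*. Among the C1q chains it was 0.30 for *C1qa* with *C1qb*, -0.46 for *C1qa* with *C1qc* and -0.67 for *C1qb* with *C1qc*. The mean profile of the members was lowest in the CD light and highest in the WD heavy library, and single members had an r with it between -0.52 for *Adgre1* and 0.90 for *Cd163*. Among 3737 other loci that averaged 10 FPKM or more and were above 0 in all libraries, 30 (0.803%) had an r of at least 0.9 with that profile. The 5 most alike were *Supt16h* (0.99), *Mlxipl* (0.99), *Aftph* (0.99), *Akr1e2* (0.97) and *Slc17a3* (0.96).

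Other macrophage genes, listed from general knowledge, were read beside the members. Of 15 genes of macrophage identity, such as receptors and transcription factors, 14 were found, 11 of them with a mean of 1 FPKM or more. In WD, 6 were more and 5 less abundant (median log2 change, 0.093), while 51.1% of all loci compared were higher. *Hmox1*, the haem-degrading enzyme that hepatocytes also make, was at 3.20 FPKM in CD and 7.37 FPKM in WD total RNA, from 5 and 11 fragments, and *Siglec1* at 0.811 FPKM and 1.75 FPKM. *Axl*, a receptor for dying cells, was at 3.94 FPKM in CD and 1.40 FPKM in WD, and *Nr1h3*, the sterol-sensing nuclear receptor LXRα, at 32.3 FPKM and 21.0 FPKM. Whole liver was sampled, and which cells made the mRNAs of this list, *Nr1h3* and *Id3* included, was not tested. Of 14 pan-myeloid genes compared, 9 were higher and 5 lower, with a median of 0.33. *Cd14*, a co-receptor for bacterial lipopolysaccharide, was at 7.59 FPKM in CD and 16.5 FPKM in WD, from 13 and 27 fragments. *Aif1*, a cytoskeletal protein of macrophages, was at 9.77 FPKM and 20.4 FPKM. The lowest change of that list was -0.34, at *Fcgr3a*. Summed over the 14 macrophage identity genes found, the level was 179 FPKM in CD and 153 FPKM in WD total RNA. It was 182 and 170 FPKM in the light and 255 and 174 FPKM in the heavy fractions, lower in WD in each as deposited. *Id3* held much of the CD heavy sum, at 121 FPKM in CD and 46.7 FPKM in WD. In total RNA *Id3* was at 59.8 and 43.2 FPKM. In the light fractions it was at 76.3 and 42.4 FPKM, a larger fall than that of the sum. The lower light sum in WD thus rested on this gene. The sums of this list were not computed on rescaled libraries. The pan-myeloid sum was 168 and 211 FPKM in total RNA, 133 and 120 in the light and 131 and 179 FPKM in the heavy fractions.

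The ligands of *Cd163* and *Vsig4* were at near-equal levels in total RNA, and *Csf1* was higher in WD. *Hp*, the haptoglobin that presents haemoglobin to *Cd163*, was at 6171 FPKM in CD and 6036 FPKM in WD, and *C3*, the ligand of *Vsig4*, at 1653 FPKM and 1629 FPKM, both being made by hepatocytes. *Csf1* was at 1.55 FPKM and 2.79 FPKM, and *Il34*, the other ligand of the CSF1 receptor, was listed at 0 in CD and at 0.590 FPKM in WD, from 1 fragment. Of 6 signaling genes around *Csf1r* that averaged 1 FPKM or more, *Csf1* included, 5 were higher in WD (all loci, 51.1%). The median of the 6 was 0.90. *Syk*, a kinase of immune receptors, was at 0.520 FPKM and 1.81 FPKM, and *Grb2*, an adaptor of many receptors, was the 1 that was lower. *C1r* and *C1s*, the proteases that C1q activates, were at 406 and 288 FPKM in CD and at 448 and 349 FPKM in WD.

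Markers of other cells were read the same way, beside the 51.1% of all loci compared that were higher in WD total RNA. Of 12 sinusoidal endothelial genes, 8 were more abundant in WD, with a median of 0.089, and of 10 stellate cell genes 7, with a median of 0.060. Of 11 hepatocyte genes 4 were more abundant, with a median of -0.037. The summed levels of all genes found from these lists in CD and WD total RNA were 139 and 162 FPKM, 154 and 148 FPKM, and 96204 and 89048 FPKM. Of 9 genes found from a list for monocytes recruited in inflammation, *S100a8*, *S100a9*, *Tnf* and *Cd9* were at 0 in all 6 libraries. Only *Il1b* and *Gpnmb* of that list had a mean of at least 1 FPKM. *Gpnmb*, a membrane glycoprotein of lipid-laden macrophages, was at 7.89 FPKM in CD and 14.3 FPKM in WD total RNA, from 19 and 33 fragments. Of 9 lymphocyte genes, 3 (*Cd3d*, *Gzmb* and *Cd79a*) were at 0 in every library and only *Cd8a* reached a mean of 1 FPKM. Among the macrophage identity genes, *Timd4*, a marker of long-lived Kupffer cells, was listed at 0 in all 6 libraries. A listed 0 does not show absence. *Col1a2* of the stellate list was also at 0 in all 6 libraries, while *Col1a1* was at 5.91 FPKM in CD total RNA.

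**Figure D4:**
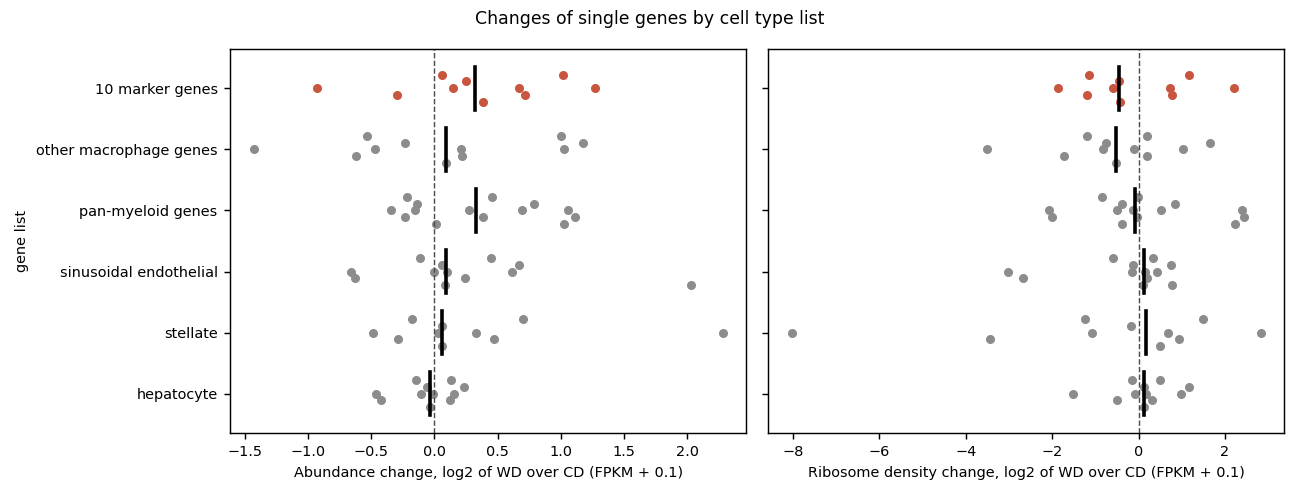
Abundance change (left) and ribosome density change (right) of single genes, as the log2 ratio of WD to CD after 0.1 FPKM was added (x axes, with different ranges), for the 10 marker genes in red and for 5 other lists in grey (y axis). Each point is 1 gene and the black bar is the median of the list. The median abundance change was 0.32 for the 10 marker genes and 0.33 for the pan-myeloid genes, and between -0.037 and 0.093 for the other lists.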

How the data were processed

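Values were deposited FPKM per locus for 33022 loci in 6 libraries, each pooled from 3 rats, with the lower and upper bounds of Cufflinks. Ribosomal RNA had been depleted by the authors, who used TopHat, Cufflinks and Cuffnorm with the assembly Rnor_6.0. The annotation is not given in the sources used here, and whether the fractions took the separate route described for Riboseq reads is uncertain. The members and lists were chosen with earlier results of these data known.

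Analyses used Python 3.11.15, numpy 2.4.6, pandas 2.3.3, scipy 1.17.1 and matplotlib 3.10.9. Changes are log2 ratios after adding 0.1 FPKM. Loci compared were those with a symbol and a usable Cufflinks estimate that averaged 1 FPKM or more. The thresholds of 1.5 and 0.75, which the methods put on ribosome density in CD over WD, were used on WD over CD. Fragment numbers were the smallest integers giving the values of a gene as integer times gene step times library factor, within 0.002 fragments plus 0.001%. The number in the lowest library above 0 was allowed to be at most 40. They were found for 71.7% of the 12380 genes detected in 3 libraries or more, and for 0.0808% once values were jittered by 1%. Larger multiples cannot be told apart from them. The bounds matched those usual for the number in 48 of 54 member values, the exceptions being the 6 of *Cd163*, whose bounds were wider. The procedure was tested on simulated data. Ribosome density intervals are conditional odds ratio intervals. All members were named, with up to 2 genes either way of other lists and the 5 most alike loci. *Id3*, *Il34*, *Col1a1* and genes listed at 0 were named after their values were seen. Alternatives were pseudocounts of 1 and 0.01 FPKM, a minimum mean of 10 FPKM, no filter, rescaling to an equal sum over loci with a symbol, centring on the median, and the heavy fraction over total RNA. Chosen after seeing the data were the thresholds on CD over WD, intervals on the rescaled values and medians without *Marco* or without *Cd163* and *Vsig4*.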

Additional observations from a re-analysis of the deposited data

Results flagged for a closer look

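The diet ratio of *Clec4f* differed between the fractions. WD to CD was 2.76 in the light fraction (10 and 60 fragments) and 1.22 in the heavy fraction (55 and 69 fragments), a ribosome density change of -1.16 whose counting interval of the ratio, 0.186 to 0.984, compares 4 libraries and not the diets. On libraries rescaled to an equal sum the interval included 1 (0.234 to 1.24), and with total RNA as the denominator the change was 0.14. In total RNA the gene had 33 fragments in CD and 35 in WD.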

How the results depend on the processing

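No paired analysis was possible because each group is 1 pooled library. Of the medians of the members, that of the heavy to light ratio in WD turned from -0.0066 to 0.60 among the 7 members that averaged 10 FPKM or more, to 0.29 on libraries rescaled to an equal sum, to 0.13 with total RNA as the denominator and to 0.31 without *Cd163* and *Vsig4*. That of the light fraction change turned from 0.071 to -0.28 with rescaling, which moved the median of all loci to -0.29. With total RNA as the denominator, the ribosome density change turned to -0.15 for *Cd68*, 0.14 for *Clec4f*, -0.35 for *Csf1r*, 0.37 for *C1qa* and 0.72 for *C1qb*, and the heavy to light value of *Cd68* in CD to 0.066. The cause was not tested. On rescaled libraries, *Marco* in the light fraction turned to -0.22 and the heavy to light ratio of *Cd68* in WD to 0.14. The number of members with a ribosome density ratio of at most 0.75 went from 6 to 3 with rescaling and also with total RNA as the denominator, which took those at 1.5 or more from 4 to 2. Total RNA as the denominator also took the members with a heavy to light ratio of at least 1.5 from 5 to 2 in CD and from 4 to 3 in WD. The shares of all loci at these settings were not computed. The medians of abundance, of the heavy fraction change, of the heavy to light ratio in CD and of ribosome density change kept their sign under every alternative run, at 0.25 to 0.41, 0.18 to 0.32, 0.20 to 0.90 and -0.46 to -0.0071. Without *Marco* no median changed sign. With 1 to 69 fragments behind each value, depth limits every comparison, and counting intervals do not cover differences between rats.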
